A study of Mus musculus with 67 samples.

Results

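The striatum of 10 young adult mice of 169 to 194 days was compared with that of 10 juvenile mice of 17 to 44 days. The members were chosen by the age and diet that the labels give, which took 20 of the 67 arrays of the series, and the sexes were weighted equally. All 20 mice were C57BL/6 animals fed ad libitum (AL), with 5 males and 5 females at each stage and no treatment or transgene. The juvenile males were 17, 19, 40, 43 and 44 days old and the juvenile females 17, 19, 21, 33 and 40 days old. The young adult males were 174, 180, 186, 193 and 194 days old and the young adult females 169, 180, 186, 193 and 194 days old. Each mouse gave 1 nylon cDNA filter, hybridised with radiolabelled cDNA from total RNA of the dissected striatum. The values are Z scores: a score of 0 is the mean of all features on that array, and a difference of 1 is 1 SD of the features. A difference in Z units is no fold change, and the scores set no gene's RNA amount against another's.

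The striatum is the input nucleus of the basal ganglia, and most of its neurons are inhibitory medium spiny neurons that receive glutamate from the cortex and dopamine from the midbrain. In mice the weeks around weaning are a time of synapse formation, dendrite growth and myelination, while genes of neurite outgrowth and cell division are known to decline. The comparison asked which of these programmes still differed in level between animals of that age and mature adults.

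Of 8448 features, 4875 carried 1 gene symbol, covering 4209 genes, 224 carried several and 3349 carried none. The 4242 features with a mean score above 0 over the 20 arrays were tested with this filter on dim features. In 17 of the arrays the scores correlated with the median profile of the series at r = 0.977 to 0.995. In the remaining 3 arrays, from a 19-day juvenile male and from a male and a female of 194 days, r was 0.925 to 0.937, and these arrays resembled one another more (median r 0.979) than the rest (median r 0.915). They carried a term of their own in the limma fits reported below, unless another setting is named. The score of Xist, the X-inactivation transcript used to check the sex labels, was -0.739 ± 0.146 in 10 females and -0.899 ± 0.249 in 10 males (SD; two-sided permutation p = 0.104). Without the 3 arrays it was -0.780 in 9 females and -0.989 in 8 males, with an exact permutation p of 0.00543. Of the striatal neuron markers, 9 genes were on the array and 6 lay above the array mean, among them Ppp1r1b (DARPP-32, the dopamine-regulated phosphatase inhibitor of medium spiny neurons) with a mean score of 0.522. Of all 8448 features 4242 did so, and these few markers are no check of the tissue. The array held no choroid plexus marker of the list, and the cortical marker Emx2 had a median score of 0.590 in juveniles.

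No feature differed between young adult and juvenile striatum at a Benjamini-Hochberg adjusted p of 0.05 in the limma fit (0 of 4242 tested, 0% called, lowest adjusted p 0.26). At an unadjusted p under 0.05 there were 98 features (2.31% of those tested), of which 62 were higher (1.46%) and 36 lower (0.849%) in young adults. This fit carried no term for the 5 runs of consecutive title numbers. Deviations of mice of the same run correlated with a median r of 0.48, and those of different runs with -0.112. With a term for run 1 feature passed (adjusted p = 0.0375) and 197 were under the unadjusted threshold. In the fit without that term the differences were small in Z units as well as uncalled. These units give no fold change, and Xist, below the array mean, differed between the sexes by only 0.160 of them over the 20 arrays. The limits that follow bound the scores and do not show that changes in RNA were small. The central 95% of them lay between -0.0959 and 0.0944 Z units, and the largest of all was 0.293. The median 95% interval reached 0.107 Z units to either side of the estimate, and 99.4% of features had an interval that lay wholly within 0.3 Z units of 0. For comparison, the median SD between mice of one group was 0.176 over the 20 arrays and 0.119 without the 3 arrays of different profile. The first steps of the rule in the study's methods, which ask for an unadjusted p under 0.05 and a Z-ratio past 1.5 (each difference of group means, with no term for array profile, divided by the SD of the differences over the array), took 26 features (0.308% of the array, 15 higher and 11 lower), none of which passed after adjustment. The analysis of variance that follows in the methods was not run.

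The feature with the smallest p of all had no gene symbol in the tables used here (feature 16714). Its scores in juveniles ran from 0.25 to 0.71 with a median of 0.540, and in young adults from 0.03 to 0.36 with a median of 0.225. All 10 young adults lay below the juvenile median, although the ranges overlapped. The difference was -0.258 ± 0.0531 (SE; limma, unadjusted p = 6.14e-05, adjusted p = 0.26), and it was -0.258 in each sex. With arrays weighted by quality the difference was -0.308 with an adjusted p of 0.00531. With a limma term for 5 runs of consecutive title numbers it was -0.276 with an adjusted p of 0.0375. Whether this feature passed thus depended on the fit. Juveniles of 17 to 21 days (0.488 ± 0.177, n = 5) and of 33 to 44 days (0.480 ± 0.122, n = 5) had like deposited scores. In other adults the mean was 0.166 in young mice on caloric restriction (CR), 0.172 and 0.152 in middle-aged AL and CR mice, and 0.309 and 0.271 in old AL and CR mice. All of these lay below the juvenile mean of 0.484, but the feature was chosen for its smallest p in a contrast in which juveniles were high, and the order of the groups is given with no test.

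**Figure D1:**
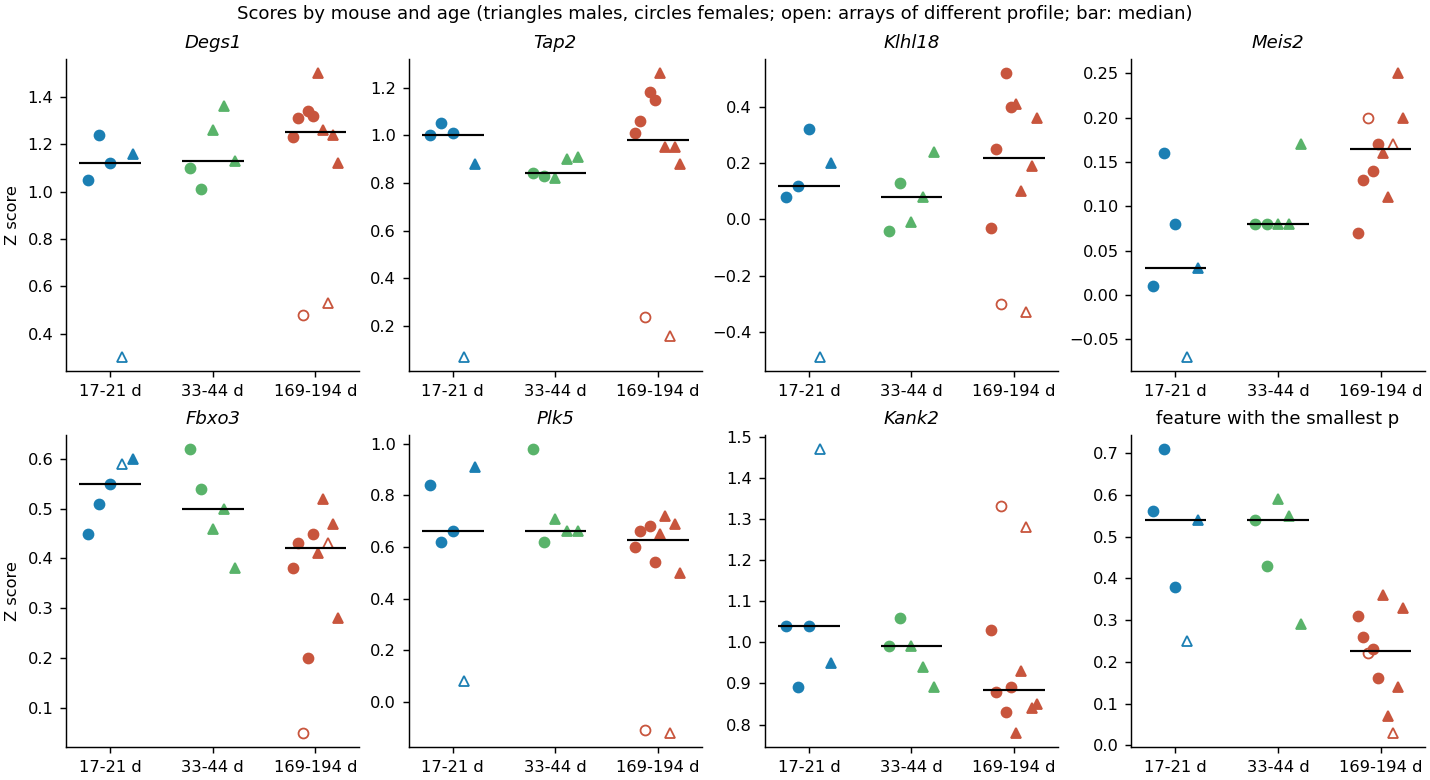
Z score (vertical axis) of 7 named genes and of the feature with the smallest p in each of the 20 mice, by age class; triangles are males, circles females, open symbols the 3 arrays of different profile, and bars the median of the class. All 10 young adults lie below the juvenile median of 0.540 for the feature without a symbol, and the age classes overlap in every panel.

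Among named genes, the 8 with the smallest unadjusted p in the upward direction were Degs1, Tap2, Rpl13a, Ngb, Gnai2, Klhl18, Meis2 and Sap18, and none passed the adjusted threshold (each adjusted p 0.999). Degs1, the desaturase that completes ceramide synthesis, scored 0.30 to 1.36 in juveniles (median 1.125) and 0.48 to 1.5 in young adults (median 1.250). The ranges overlapped almost fully, 7 of 10 young adults lay above the juvenile median, and the difference was 0.143 ± 0.0482. Tap2, a subunit of the peptide transporter for class I antigen presentation, had medians of 0.890 and 0.980 and a difference of 0.137 ± 0.0478. Ngb encodes neuroglobin, the oxygen-binding globin of neurons. Its scores were 0.08 to 0.33 (median 0.210) in juveniles and 0.19 to 0.50 (median 0.355) in young adults, a difference of 0.124 ± 0.0466. Meis2, a homeodomain factor of the medium spiny lineage, scored -0.07 to 0.17 (median 0.080) in juveniles and 0.07 to 0.25 (median 0.165) in young adults, with 9 of 10 adults above the juvenile median and a difference of 0.0932 ± 0.0384. Klhl18, an adaptor of cullin ubiquitin ligases, had the largest difference of the 8 at 0.154 ± 0.0622. Rpl13a of the large ribosomal subunit (0.128 ± 0.0456), Gnai2, an inhibitory G protein subunit (0.134 ± 0.0511), and Sap18 of the histone deacetylase complex (0.107 ± 0.0443) had differences of like size. Gnai2 was measured by 2 features, and the dimmer one had the opposite sign (-0.0692).

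The 8 genes at the lower end were Fbxo3, Kank2, Pla2r1, Plk5, Map3k7, Kcnd3, Usp3 and Rnf216, and again none passed. Fbxo3, a substrate receptor of ubiquitin ligases, scored 0.38 to 0.62 in juveniles (median 0.525) and 0.05 to 0.52 in young adults (median 0.420). Every young adult lay below the juvenile median, the ranges overlapped, and the difference was -0.151 ± 0.0509. Its other feature on the array had a difference of 0.0432. Plk5, a polo-like kinase found in brain, scored 0.08 to 0.98 (median 0.660) and -0.12 to 0.72 (median 0.625), a difference of -0.122 ± 0.0510. Kcnd3, a pore subunit of the fast A-type potassium current, had medians of 0.255 and 0.170 and a difference of -0.106 ± 0.0455. Kank2, a cytoskeletal adaptor at focal adhesions, differed by -0.108 ± 0.0388, and Map3k7, the TAK1 kinase of cytokine signalling, by -0.108 ± 0.0451. The phospholipase receptor Pla2r1 differed by -0.110 ± 0.0402, the histone deubiquitinase Usp3 by -0.0990 ± 0.0447 and the ubiquitin ligase Rnf216 by -0.206 ± 0.0931. The 16 genes had the same sign in males and in females, between which they were averaged when chosen.

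Where these features stood in the table moved with the direction of their difference. The scores of an array departed from the median profile in a pattern that repeated every 22 rows of the table: a period of 22 held a median of 14.0% of the variance of these departures in the 17 arrays, against 0.107% for a period of 21 and 0.198% for 23. Of the 62 features higher in young adults at an unadjusted p under 0.05, 54 had an even feature number, as did all 8 named genes above, and 21 lay in the last of 16 equal stretches of the table, which held 314 of the 4242 tested features. Among all tested features 2022 had an even and 2220 an odd number. Of the 36 lower features, 29 had an odd number, as did 7 of the 8 named genes, and 1 lay in the last stretch. A correction for this grid, chosen after seeing the data, lowered the median SE from 0.0519 to 0.0353 Z units and left 75 features (28 higher, 47 lower) under the unadjusted threshold, 19 of which were under it in the same direction before correction. The 28 higher features were then 16 even and 12 odd, with 4 in the last stretch, and no feature passed after adjustment (lowest adjusted p 0.998).

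**Figure D2:**
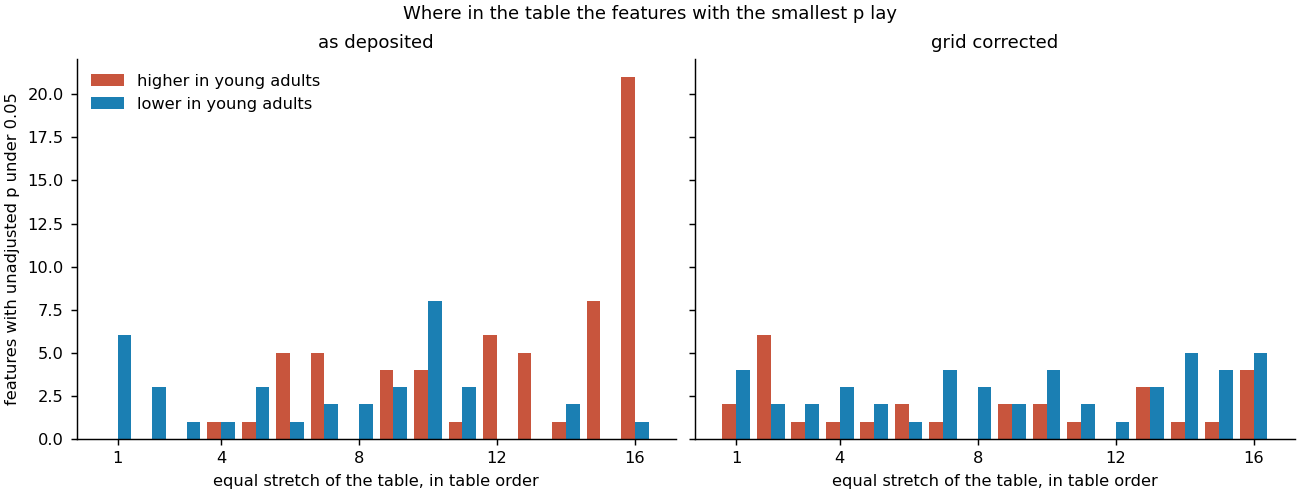
Number of features with an unadjusted p under 0.05 (vertical axis) in each of 16 equal stretches of the table, from its start (1) to its end (16), for the deposited scores (left) and after the grid correction (right). As deposited, 21 of the 62 higher features lie in the last stretch, and after correction 4 of 28 do.

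With the grid correction the 8 upward genes had differences of 0.0141 to 0.129 Z units, and 2 of them, Klhl18 (0.129, unadjusted p = 0.00582) and Degs1 (0.0664, unadjusted p = 0.0472), were still under the unadjusted threshold. Tap2 was then at 0.0408, Rpl13a at 0.0417, Ngb at 0.0359, Gnai2 at 0.0141, Meis2 at 0.0143 and Sap18 at 0.0283. The 8 downward genes had differences of -0.131 to -0.0432. Fbxo3 (-0.104, unadjusted p = 0.0157), Plk5 (-0.0804, 0.0167) and Map3k7 (-0.0735, 0.0337) were still under the threshold, whereas Kank2 (-0.0568), Pla2r1 (-0.0432), Kcnd3 (-0.0484), Usp3 (-0.0693) and Rnf216 (-0.131) were not. The feature without a symbol was at -0.275. No value of this paragraph passed after adjustment. The genes were chosen for small p in the deposited scores, which alone favours smaller differences under any other processing. The part of that choice in the smaller values was not tested.

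**Figure D3:**
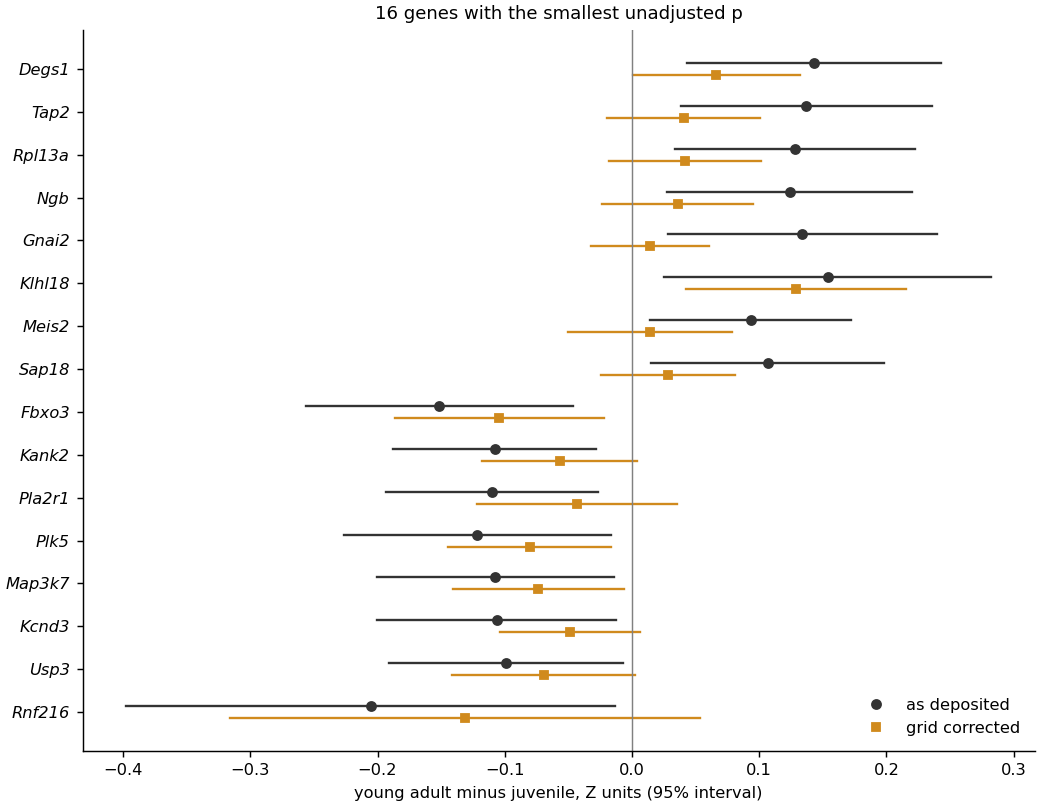
Young adult minus juvenile difference in Z units (horizontal axis) with its 95% interval for the 16 named genes, from the deposited scores (black circles) and after the grid correction (orange squares). The corrected estimates lie nearer 0 for all 16 genes, and the corrected intervals of 5 genes, Degs1, Klhl18, Fbxo3, Plk5 and Map3k7, leave out 0. The genes were chosen for small p in the deposited scores, and that choice alone favours smaller differences under other processing.

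Lists of genes were then read for the programmes of brain maturation. The 25 lists had 305 tested genes in 23 lists, and 0 of them were called, as were 0% of all features. Over all 2159 named genes, each given by its brightest feature, the median difference was 0.0074 Z units with 56.7% above 0, and after the grid correction it was -0.0027 with 47.1% above 0. Each list is set against these values, and none was tested as a set. The members printed with values were chosen mostly by small p in the deposited scores, so the same limit holds for their corrected values.

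Genes of immature neurons and neurite growth did not stand apart in level. Of 16 on the array 12 were tested, 7 were higher and 5 lower in young adults, none was under the unadjusted threshold, and the median was 0.0165 (-0.0028 after the grid correction). The list held Sox11, a transcription factor of newborn neurons, Stmn1, a microtubule-destabilising protein of growing axons, and the pleiotrophin and midkine growth factors Ptn and Mdk. Its widest 95% interval reached 0.182 Z units from 0. The semaphorin receptors Plxna2 and Nrp1 had the smallest p of the list. Plxna2 scored 0.37 to 0.64 in juveniles and 0.32 to 0.88 in young adults, a difference of 0.0753 ± 0.0466 (0.0332 corrected). Nrp1 differed by 0.0537 ± 0.0424 (0.0298 corrected). The growth cone gene Gap43 was on the array but below the filter.

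Of 18 cell cycle genes 14 were above 0 (77.8%, beside 56.7% of all genes) with a median of 0.0125, and after the grid correction 7 of 18 (38.9%, beside 47.1%) with a median of -0.0048. None was under the unadjusted threshold in either. Ccna2, the cyclin of S phase and mitotic entry, had medians of 0.14 and 0.10 and a difference of -0.0747 ± 0.0440 (-0.0097 corrected). Among 13 tested genes of chromatin and high mobility group proteins the median was 0.0264 (0.0010 corrected). The corepressor Trim28 had the smallest p there, with a difference of 0.0972 ± 0.0526 (0.0301 corrected).

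Few myelin genes could be read. Of 6 on the array, 4 were tested, with 1 above 0 and a median of -0.0304 (-0.0347 corrected). They were Tppp3, a microtubule-binding protein, with a difference of -0.0476 ± 0.0499 (-0.0352 corrected), Josd2, the small heat shock protein Cryab and the actin-severing Gsn. After the grid correction all 4 were below 0. Of the oligodendrocyte precursor list 1 gene was tested, Bcas1, at 0.0451. Among 7 astrocyte genes 5 were above 0 (median 0.0189, 0.0156 corrected). Vim, the intermediate filament of immature and reactive astrocytes, scored 0.85 to 1.21 in juveniles (median 1.025) and 0.98 to 1.24 in young adults (median 1.080). Of the adults 9 lay above the juvenile median, but the difference of 0.0737 ± 0.0405 was -0.0136 after the grid correction. Sparcl1, a synapse-promoting secreted protein of astrocytes, differed by 0.105 ± 0.0711 (0.0881 corrected). Of 4 microglial and immune genes 3 were above 0, with C1qc of the complement initiator at 0.0471 ± 0.0458 (0.0164 corrected).

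Striatal neuron genes went both ways. Of 6 tested, 3 were above and 3 below 0, with a median of -0.0273 (-0.0105 corrected). Meis2, described above, was the only member under the unadjusted threshold. It was higher in young adults by 0.0932 (0.0143 corrected). Ppp1r1b scored 0.24 to 0.92 in juveniles (median 0.575) and 0.14 to 0.67 in young adults (median 0.465). The ranges overlapped widely, and the difference was -0.132 ± 0.0654 (unadjusted p = 0.0553; -0.0675 corrected). Rasd2, the small GTPase Rhes that is enriched in medium spiny neurons, scored 0.06 to 0.32 (median 0.170) in juveniles and -0.09 to 0.22 (median 0.110) in young adults, with 1 of 10 adults above the juvenile median. Its difference of -0.0622 ± 0.0393 was -0.0900 after the grid correction (unadjusted p = 0.0140), farther from 0 than in the deposited scores. Arpp19, a phosphatase inhibitor, was at 0.0866 ± 0.0444 (0.0321 corrected), and its dimmer feature was at -0.0173.

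Of 7 genes of synaptic vesicles 6 were above 0, with a median of 0.0569, the highest of the lists with 5 or more tested genes. After the grid correction 3 of 7 were above 0 and the median was -0.0043. Atp6v0d1, a subunit of the proton pump that fills vesicles, differed by 0.105 ± 0.0501 (0.0507 corrected, unadjusted p = 0.0485), and the vesicle glycoprotein Sv2a by 0.0893 ± 0.0468 (-0.0043 corrected). On the postsynaptic side 3 of 7 were above 0 (median -0.0336, 0.0172 corrected). Calb1, the calcium buffer calbindin of matrix medium spiny neurons, scored -0.04 to 0.55 in juveniles (median 0.355) and -0.12 to 0.47 in young adults (median 0.245). Its difference was -0.0937 ± 0.0479 (-0.0778 corrected), and all 4 of its features were below 0 when no filter was used, from -0.120 to -0.0325.

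Among 21 tested genes of the extracellular matrix 11 were above and 10 below 0, with a median of 0.0051 (-0.0081 corrected). Col4a1, a collagen of the vascular basement membrane, differed by 0.105 ± 0.0454 (0.0098 corrected). The gelatinase Mmp2 was at -0.129 ± 0.0640 (-0.0667 corrected), the fibrillar collagen Col3a1 at -0.0778 ± 0.0489 with 2 of its 4 features of the opposite sign, and fibronectin (Fn1) at -0.0724 ± 0.0484 (-0.0439 corrected). In the vessel wall list 4 of 5 were above 0 (median 0.0217, 0.0024 corrected), led by the calcification inhibitor Mgp at 0.0943 ± 0.0463 (0.0250 corrected). Of 7 genes of insulin-like growth factor and thyroid hormone signalling 4 were above 0, and the binding protein Igfbp5 scored 0.57 to 0.78 in juveniles and 0.59 to 0.93 in young adults, a difference of 0.0953 ± 0.0420 (0.0403 corrected). In bulk tissue fewer cells of a type and less RNA per cell cannot be told apart, which holds for every marker above.

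**Figure D4:**
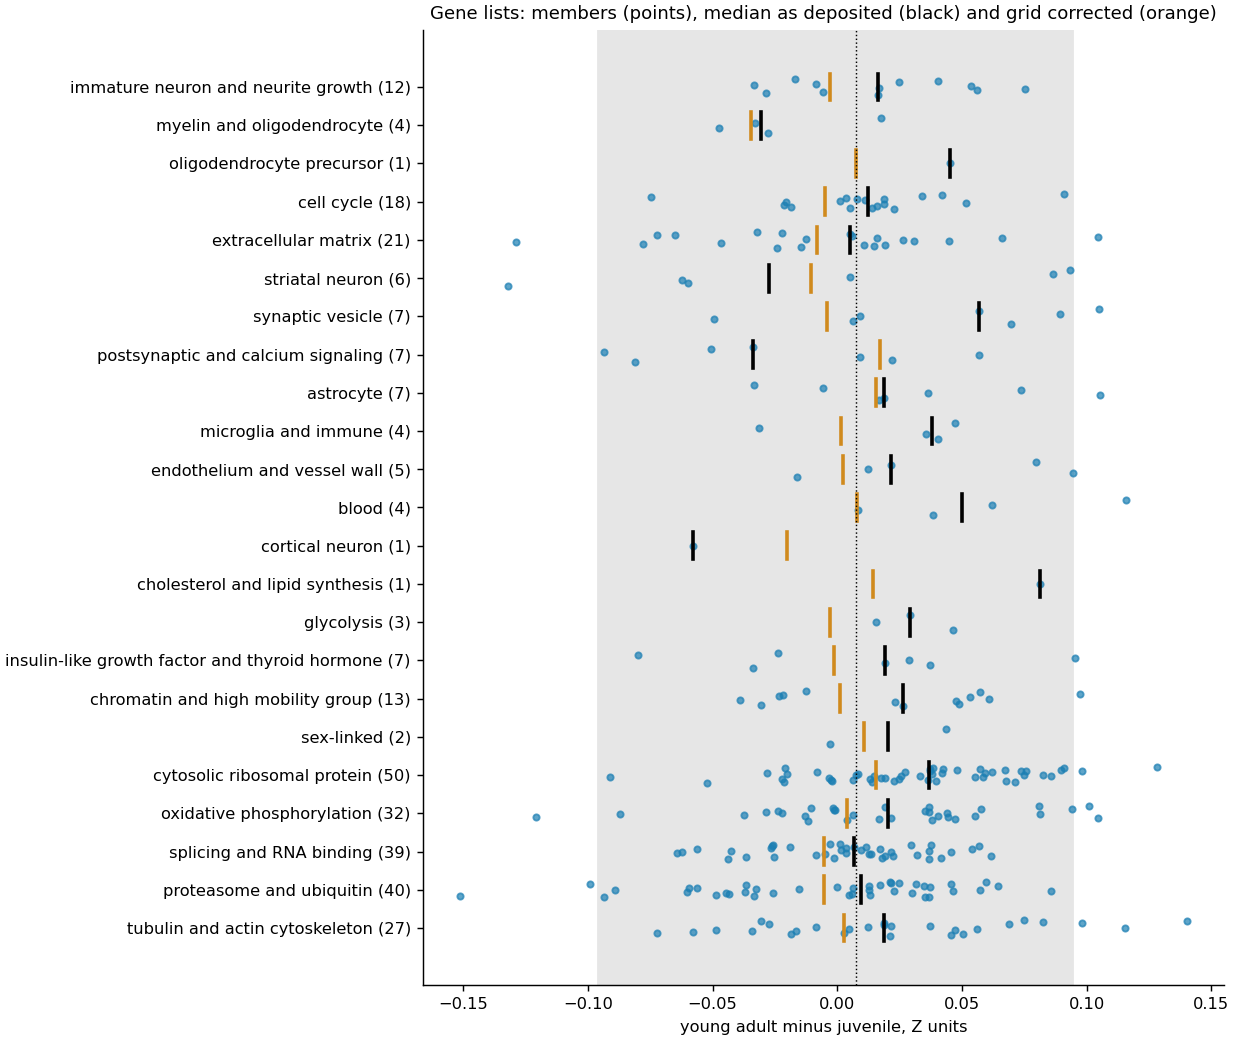
Young adult minus juvenile difference in Z units (horizontal axis) for the tested members of each list (points, their number in brackets), with the list's median in the deposited scores (black bar) and after the grid correction (orange bar). The grey band spans the central 95% of all tested features, -0.0959 to 0.0944, the dotted line is the median of all genes, and of the 50 ribosomal protein genes 39 lie above 0.

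Genes of basic cell functions were better covered. Cytosolic ribosomal protein genes had 39 of 50 above 0 (78.0%, beside 56.7% of all genes) and a median of 0.0367, and after the grid correction 37 of 50 (74.0%, beside 47.1%) and a median of 0.0157. In the deposited scores 3 of the 50 were under the unadjusted threshold, beside 53 of all 2159 genes, among them Rpl13a and Rpl11 (0.0979 ± 0.0446). After the grid correction 3 of the 50 were again under it, beside 33 of all 2159 genes. Rpl13a and Rpl11 were then not among them, at 0.0417 (unadjusted p = 0.16) and 0.0731 (unadjusted p = 0.162). Such genes have many near-identical pseudogenes, which cDNA probes may not tell apart. Of 32 genes of oxidative phosphorylation 20 were above 0 with a median of 0.0203 (20 of 32 and 0.0037 corrected). The complex I subunit Ndufs1 was at 0.101 ± 0.0536 (0.0456 corrected) and the succinate dehydrogenase subunit Sdha at 0.105 ± 0.0578 (0.0133 corrected). Splicing and RNA binding genes had 24 of 39 above 0 and a median of 0.0068. Of 40 genes of the proteasome and ubiquitin pathway 23 were above 0 (median 0.0094), and the conjugating enzyme Ube2e1 was at -0.0892 ± 0.0423 (-0.0752 corrected), with its dimmer feature at 0.0032. Of 27 cytoskeletal genes 18 were above 0 (median 0.0188), with tropomyosin Tpm1 at 0.116 ± 0.0482 (0.0209 corrected) and the actin-capping Capzb at 0.0982 ± 0.0475 (0.0638 corrected). All 10 young adults lay above the juvenile median of Capzb. Smaller lists added little: 3 of 3 glycolytic genes were above 0 (median 0.0292, -0.0030 corrected), 1 lipid synthesis gene was at 0.0813, 2 sex-linked genes had a median of 0.0203, the cortical marker Emx2 was at -0.0580 and no immediate early gene lay above the filter.

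The juveniles spanned weaning, so they were also split by their labelled age. Between mice of 17 to 21 days (2 males, 3 females) and of 33 to 44 days (3 males, 2 females) no feature passed after adjustment (0% called). Here 283 features were under the unadjusted threshold (6.67%), of which 152 were higher (3.58%) and 131 lower (3.09%) in the older juveniles. The later interval, from 33 to 44 days to young adulthood, had 173 (4.08%), and the whole interval from 17 to 21 days to young adulthood had 129 (3.04%), again with 0% called. The 3 contrasts share arrays and are not independent of each other. Juvenile age was also not balanced over the 5 runs of title numbers. The juveniles of run 3 were all of 17 to 21 days and those of run 5 all of 33 to 44 days. Age class and run thus cannot be told apart fully in the contrasts that split the juveniles.

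The named genes with small p in each interval are given next, and they were chosen after their values were seen. Pfkm, the muscle-type phosphofructokinase of glycolysis, had means of 0.132 ± 0.191 at 17 to 21 days, 0.308 ± 0.0976 at 33 to 44 days and 0.284 ± 0.289 in young adults. With sex and array profile in the fit the older juveniles were 0.297 ± 0.0755 above the younger (adjusted p = 0.724; 0.240 with the grid correction). Ndufa10, a subunit of complex I, had means of 0.830, 1.008 and 0.944 and a difference of 0.271 ± 0.0782 (0.213 corrected). Mib1, the ligase that activates Notch ligands, was at -0.203 ± 0.0600 (-0.0662 corrected), and the forkhead factor Foxn3 at -0.193 ± 0.0610 (-0.0676 corrected). In the later interval the smallest p among named genes were those of Klhl13, a cullin adaptor of mitosis, at 0.199 ± 0.0565 (0.0481 corrected), and of the exocyst subunit Exoc8 at 0.184 ± 0.0540 (0.0759 corrected). No gene of these 6 passed after adjustment.

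Globin features, chosen after their values were seen, had their lowest median score at 33 to 44 days, with no feature past the adjusted threshold and a smaller dip after the grid correction. Globins are abundant in red blood cells, and in dissected tissue they follow residual blood as well as expression by the tissue's own cells. The array held 23 globin features: 12 of Hba-a1, 3 of Hba-a2, 1 of Hba-x, 4 of Hbb-y and 3 that several Hbb genes share. These paralogs are alike in sequence and cross-hybridise, so the features are not independent measurements. Without a filter, 22 of the 23 were lower at 33 to 44 days than at 17 to 21 days, with a median of -0.147 Z units, while 52.6% of all features were lower (median -0.0060). An unadjusted p under 0.05 was found for 12 of the 23 (5.21% of all features) and an adjusted one for 0. From 33 to 44 days to young adulthood 21 of 23 were higher with a median of 0.135, and 15 were under the unadjusted threshold (3.5% of all features). Young adults and all juveniles together differed less, with 18 of 23 above 0, a median of 0.0467 and 2 under the unadjusted threshold (3.24% of all features).

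By mouse, the mean score of the 23 features ran from 0.30 to 0.518 (median 0.423) at 17 to 21 days, from 0.197 to 0.377 (median 0.274) at 33 to 44 days, and from 0.231 to 0.543 (median 0.358) in young adults. The 3 classes overlapped. At 33 to 44 days the mice of title-number runs 1 and 2 were at 0.377 and 0.376, and those of runs 4 and 5 at 0.273, 0.197 and 0.274. Young adults of run 5 were at 0.360 and 0.338 and those of run 4 at 0.470 and 0.468. The part of run in the dip was not tested. The lowest scores of the youngest and of the oldest class were those of the 3 arrays of different profile, and without these arrays the classes ran from 0.358 to 0.518, 0.197 to 0.377 and 0.338 to 0.543. With the grid correction 22 of 23 features were again lower at 33 to 44 than at 17 to 21 days (median -0.105) and 21 of 23 higher in young adults than at 33 to 44 days (median 0.0806). The class medians of the mean score were then 0.380, 0.329 and 0.378, closer together than in the deposited scores. The part of residual blood in other results was not tested. The brightest Hba-a1 feature, with a maturation difference of 0.116 ± 0.0489 (0.0264 corrected), was the member of the blood list with the smallest p, and 9 of the 12 Hba-a1 features shared its sign.

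**Figure D5:**
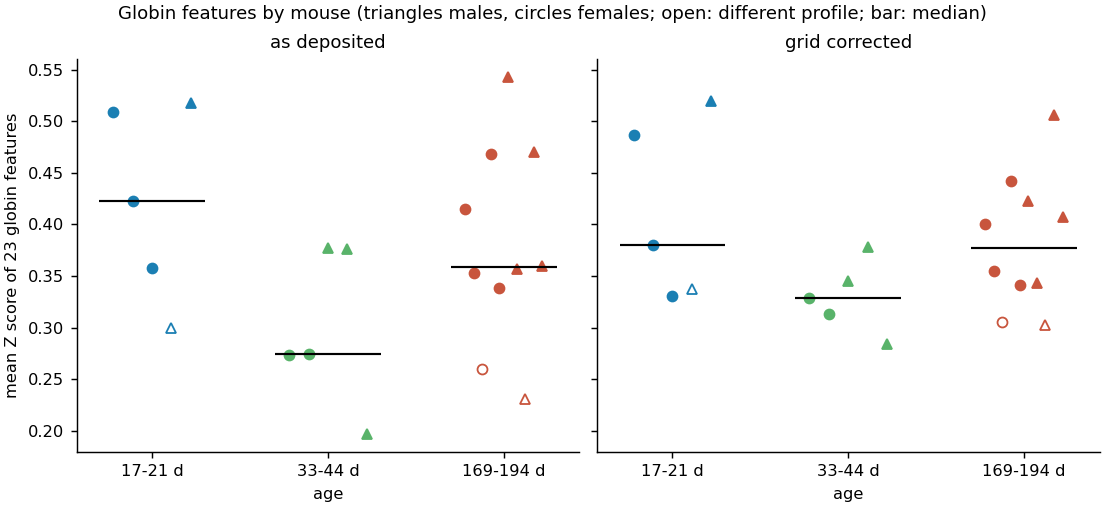
Mean Z score of the 23 globin features (vertical axis) in each mouse by age class, from the deposited scores (left) and after the grid correction (right); triangles are males, circles females, open symbols the 3 arrays of different profile and bars the medians. The medians of the deposited scores are 0.423, 0.274 and 0.358 and those of the corrected scores 0.380, 0.329 and 0.378, with overlapping classes.

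Males and females did not differ in the change from juvenile to young adult at the adjusted threshold (interaction in the limma fit, 0% called, 2 features or 0.0471% at an unadjusted p under 0.05). Within males 28 features (0.66%) and within females 42 (0.99%) were under the unadjusted threshold, with 0% called in either. The juvenile males had a median age of 40 days and the juvenile females of 21 days, so sex and juvenile age cannot be told apart fully in this comparison.

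Levels in the other adults were read for genes that had been low in young AL mice, without a test. Fbxo3 had a mean of 0.520 ± 0.075 in juveniles and 0.362 ± 0.144 in young AL mice, and the 5 other adult groups had means from 0.452 to 0.499. For Plk5 the means were 0.674 in juveniles, 0.481 in young AL mice and 0.593 to 0.656 in the other groups. The medians were 0.660, 0.625 and 0.550 to 0.720. For both genes young AL mice thus lay below the other adult groups by mean but within their range by median. The young AL arrays of different profile were at -0.11 and -0.12 for Plk5, and these means carry no term for profile. Young CR mice, of the age of the young AL mice but on restricted feed, had a mean of 0.639 ± 0.264 for Ppp1r1b (n = 9), beside 0.438 ± 0.193 in young AL mice and 0.607 ± 0.217 in juveniles. Middle-aged and old AL mice, at 0.456 and 0.445, had means close to that of young AL mice, and middle-aged and old CR mice were at 0.577 and 0.514. For Rasd2 the young CR mean was 0.231 ± 0.084, beside 0.099 ± 0.085 and 0.175 ± 0.087, and the means were 0.115 and 0.096 in middle-aged and old AL mice and 0.137 and 0.136 in middle-aged and old CR mice. For Calb1 the young CR mean was 0.349, beside 0.223 in young AL mice and 0.355 in juveniles. Middle-aged AL mice had a mean of 0.328, above that of middle-aged CR mice at 0.275. Old AL mice, at 0.339, also lay above old CR mice. In middle-aged and old mice the order of the diets by mean was thus opposite to that for Ppp1r1b and Rasd2. These genes were chosen on the young AL arrays, which sets where that group lies among the others.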

How the data were processed

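Per the labels, total RNA of each striatum was labelled with 33P-dCTP and hybridised to 1 filter per mouse, and the authors deposited 1 Z score per feature, transformed within each array. Intensities, log base and background handling are not given in the sources used here, and depth does not apply to arrays, whose number limits the precision. Labels give each array its own mouse. Features were named through GEO's platform annotation, updated by gene identifier for 4861 features. The members, the gene lists and the tests were chosen with earlier results of these data known.

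The scores of the 20 arrays were fitted with limma (version 3.58.1, R 4.3.3) using 4 group means (stage by sex) and a term for arrays with r under 0.95 to the median profile; a further fit used 3 age classes, sex and the same term. Features with a mean score above 0, the filter of the study's methods, were tested, with Benjamini-Hochberg adjustment at 0.05. Errors are SE of a difference and SD of a mean. Named genes were features with 1 symbol: the 8 with the smallest p in each direction, and up to 4 tested genes per list by smallest p; of those, the ones printed with values were selected after the fit. A gene is given by its brightest feature. Xist was compared by permutation (100000 permutations, two-sided; exact without the 3 arrays) in Python 3.11.15. The grid correction removed, by median polish in 3 rounds, the column and row effects of a grid of 22 columns from each array's departure from the median profile. The fit was tried on simulated scores with independent noise and changes larger than any maturation difference seen here. That trial cannot show error rates or power for these data. Alternatives changed scaling, centring, filter, profile term, position, weights, samples and block. Levels of old AL mice include 2 columns listed in reversed order, which were turned.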

Additional observations from a re-analysis of the deposited data

Results flagged for a closer look

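In 40 of 200 groups of 5 mice examined over the genes described above, 1 mouse lay far from the other 4 (Dixon's gap test at its 95% critical value, which chance passes in about 1 of 20 groups), and in 33 of the 40 that mouse had 1 of the 3 arrays of different profile. The 40 cases come from 25 genes.

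The array of juvenile AL male replicate 3, of different profile, was lowest of its group for Degs1 (0.30), Tap2 (0.07), Rpl13a (-0.25), Sap18 (0.35), Sv2a (0.50), Atp6v0d1 (0.07), Col4a1 (0.88), Hba-a1 (0.17), Trim28 (0.23), Sdha (-0.05) and Tpm1 (-0.37). It was highest for Kank2 (1.47), Pla2r1 (0.57), Rnf216 (0.80) and Ccna2 (0.48).

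The array of young AL female replicate 3, also of different profile, was lowest for Degs1 (0.48), Tap2 (0.24), Gnai2 (0.37), Sap18 (0.54), Plk5 (-0.11), Sv2a (0.73), Atp6v0d1 (0.28), Col4a1 (1.13), Hba-a1 (0.42), Trim28 (0.46), Sdha (0.27) and Foxn3 (0.30). It was highest for Pla2r1 (0.36), Usp3 (1.08), Rnf216 (0.75), Pfkm (0.72) and Ndufa10 (1.35). Young AL male replicate 3, the remaining array of different profile, was lowest for Plk5 (-0.12).

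Among arrays of the usual profile, juvenile AL female replicate 5 was lowest for Gnai2 (0.59) and Tppp3 (0.41), and juvenile AL female replicate 1 was highest for Rnf216 (1.24). Juvenile AL female replicate 2 was highest for Vim (1.21) and Col4a1 (1.68) and lowest for Fn1 (1.51), and young AL female replicate 5 was lowest for Nrp1 (0.31). The part of array profile in these values was not tested.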

How the results depend on the processing

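No feature passed the adjusted threshold for maturation when any 1 mouse was left out, and the features under the unadjusted threshold then numbered 56 (without young AL female replicate 4) to 199 (without young AL male replicate 5), beside 98. They were 135 to 530 for the juvenile classes (530 without juvenile AL male replicate 4), 74 to 463 from 33 to 44 days to adulthood, 39 to 271 from 17 to 21 days to adulthood and 1 to 34 for the interaction of stage and sex. With array weights, whose estimation did not fully converge, 1 feature passed for maturation, 7 for the juvenile classes (Ndufa10, Agtrap, Tiparp and Pfkm higher, and 3 features lower) and 1 from 17 to 21 days to adulthood. The cause was not tested.

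Runs of title numbers formed 5 blocks. Deviations of mice of 1 run correlated with a median r of 0.48 (-0.144 to 0.97 over 30 pairs) and of different runs with -0.112. Because 9 and not 10 of the 10 sex-matched pairs exceeded 0.1, the main fit carried no term for run, which is a strict cutoff on few pairs. Each run held a mouse of each of the 4 groups, so a block could be fitted. The paper reports balanced batches but does not link them to these numbers. The count of features passing in the main fit depends on this choice. With the replicate block 1 feature passed for maturation, feature 16714 (-0.276, adjusted p = 0.0375), and 197 were under the unadjusted threshold. With the grid correction and the block 1 feature passed for the juvenile classes, Fundc1 (-0.190, adjusted p = 0.0487).

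Scaling moved the split of unadjusted calls from 62 higher and 36 lower to 28 and 47 with the grid correction and to 57 and 46 with median centring. Without the profile term 17 were under the threshold, without the 3 arrays 57, and without the filter 274. The Xist difference between the sexes was 0.160, 0.209 without the 3 arrays and 0.176 with the grid correction. Of 1604 recomputed gene values 1598 kept their direction. The other 6 were Sv2a (-0.0043, -0.0043 and -0.0048) and Vim (-0.0136, -0.0136 and -0.0156) with the grid correction, alone, without the filter and with the block. The genes were chosen on the main fit and the settings share most arrays, so a kept direction was likely in advance and says little about robustness. Signal over background could not be read from Z scores.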
